A study of Mus musculus with 17 samples.

Results

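The Polycomb repressor genes measured here are the core members of both Polycomb complexes: Ezh2, Ezh1, Eed and Suz12 of Polycomb repressive complex 2 (PRC2), and Ring1, Rnf2, Bmi1, Cbx2, Cbx7 and Cbx8 of Polycomb repressive complex 1 (PRC1). They were chosen by name, as every probe set annotated to exactly 1 of these 10 symbols, which gave 11 probe sets of 35512 on the array. All 10 were among the 19938 genes tested, and Eed had a second probe set. Values are log2 intensities as deposited, so differences are on the log2 scale, and levels of different probe sets are not comparable with each other.

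Expression was measured in pancreatic islets of untreated 2-month-old mice on 17 arrays in 5 groups. Men1flf RIP-Cre mice (3 arrays) are described as knocked out for Men1, Rbp2flf RIP-Cre mice (4 arrays) for Rbp2, and Men1flf Rbp2flf RIP-Cre mice (4 arrays) for both. The controls were RIP-Cre mice (3 arrays), which carry the Cre transgene that all knockout groups share, and wt mice (3 arrays). RIP-Cre makes the recombinase under the rat insulin promoter, so deletion falls on beta cells and the other cells of an islet keep both genes. Nothing in the labels states whether repeat arrays came from different mice, so the p-values cover only array-to-array spread, which may be technical. Strain background is not given in the sources used here.

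PRC2 places methyl groups on lysine 27 of histone H3, with Ezh2 or Ezh1 as the enzyme and Eed and Suz12 as the subunits it needs. PRC1 attaches ubiquitin to histone H2A through Ring1 or Rnf2, paired with a Pcgf protein such as Bmi1, and canonical PRC1 reads the PRC2 mark through a Cbx protein. In beta cells, Ezh2 and Bmi1 are known for holding the cell cycle inhibitor locus Cdkn2a silent in young animals. Menin, the Men1 product, works with enzymes that methylate lysine 4 of histone H3, a mark of active genes that opposes Polycomb silencing. Rbp2, now named Kdm5a, removes that mark and has been found together with PRC2 in mouse embryonic stem cells.

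The region in front of the gene start is shown for Ring1 and Rnf2, the alternative ubiquitin ligases of PRC1, because in the deposited values their levels moved in opposite directions in Men1flf RIP-Cre islets. The sequences are 250 bases before the start from RefSeq, build GRCm38.p6, read along the gene's strand, which is the minus strand for both. Ring1 lies at chr17:34024681-34024930 and Rnf2 at chr1:151500992-151501241, and capitals mark the GC box, letters GGGCGG or its reverse complement CCGCCC.
Ring1: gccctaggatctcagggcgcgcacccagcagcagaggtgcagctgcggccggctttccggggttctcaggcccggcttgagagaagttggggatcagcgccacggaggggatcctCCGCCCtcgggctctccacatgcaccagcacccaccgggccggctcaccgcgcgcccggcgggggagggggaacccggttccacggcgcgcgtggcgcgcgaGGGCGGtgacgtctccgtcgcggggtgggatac
Rnf2: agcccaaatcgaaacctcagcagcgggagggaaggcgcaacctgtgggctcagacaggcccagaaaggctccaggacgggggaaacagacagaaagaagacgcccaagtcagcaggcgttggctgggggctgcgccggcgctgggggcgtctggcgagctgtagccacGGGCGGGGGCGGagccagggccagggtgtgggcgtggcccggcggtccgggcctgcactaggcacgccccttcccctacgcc
Both regions are rich in the CpG dinucleotide, with 30 in the Ring1 region and 20 in the Rnf2 region, against a median of 6 over 32841 promoter regions of that length. Their GC content was 73.6% and 70.4%, against a median of 52.4%. Each held 2 GC boxes, which 32.7% of all such regions hold at least once. In the Ring1 region they stood 135 to 130 and 33 to 28 bases before the start, and in the Rnf2 region 82 to 77 and 76 to 71 bases before it. The CCAAT box (letters CCAAT), the ETS motif (letters CCGGAAG), the E2F core (letters TTCCCGC) and the TATA box (letters TATAAA), searched on both strands, were found in neither region. Of all such regions 33.9% hold the CCAAT box and 12.4% the TATA box.

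Ring1 fell in all 3 knockout groups and was the member with the largest change in each. In Men1flf RIP-Cre islets its levels were 8.81, 8.90 and 8.82, in Rbp2flf RIP-Cre islets 8.90, 9.06, 9.36 and 9.06, and in Men1flf Rbp2flf RIP-Cre islets 9.10, 8.74, 9.23 and 8.93. The RIP-Cre arrays read 9.83, 9.84 and 9.84 and the wt arrays 9.71, 9.66 and 9.85. Each of the 11 knockout arrays thus lay below each of the 6 control arrays. The log2 fold change relative to RIP-Cre islets was -0.99 (SE 0.12, limma adjusted p = 9.55e-05) in Men1flf RIP-Cre, -0.74 (SE 0.12, adjusted p = 0.00545) in Rbp2flf RIP-Cre and -0.84 (SE 0.12, adjusted p = 0.000560) in Men1flf Rbp2flf RIP-Cre. Only 1.01%, 0.893% and 0.998% of the tested genes had a lower fold change in these comparisons. The 3 comparisons share the RIP-Cre arrays. With wt as the control Ring1 also passed in each.

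No further change in Ring1 passed the test when both genes were lost rather than 1. The change in Men1flf Rbp2flf RIP-Cre was 0.16 (95% interval -0.09 to 0.40, adjusted p = 0.541) against Men1flf RIP-Cre and -0.10 (95% interval -0.32 to 0.13, adjusted p = 0.851) against Rbp2flf RIP-Cre, with overlapping arrays in both. The interaction, which is the Rbp2flf effect in Men1flf islets minus the Rbp2flf effect in RIP-Cre islets, was 0.90 for Ring1 (SE 0.16, limma adjusted p = 0.0219). It was called for 1 of the 10 members, against 3.39% of all genes, and the median interaction of all genes was 0.20. It stood at 0.93 (adjusted p = 0.0144) after cyclic loess, where 30% of all calls were positive against 52.4% as deposited. With the array median held fixed it was 0.69 (adjusted p = 0.290), where 0.100% of all genes were called. The call on Ring1 ended without RIP-Cre array 3 (0.90, adjusted p = 0.0569), Men1flf RIP-Cre array 1 (0.88, adjusted p = 0.0782) or array 3 (0.89, adjusted p = 0.0552), or Men1flf Rbp2flf RIP-Cre array 1 (0.86, adjusted p = 0.0532). In order of their means the groups ran Men1flf RIP-Cre, Men1flf Rbp2flf RIP-Cre, Rbp2flf RIP-Cre, wt and RIP-Cre, and the only neighbours in that order whose arrays did not overlap were Rbp2flf RIP-Cre and wt.

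Rnf2, the alternative ligase, moved the other way. It read 9.34, 9.35 and 9.10 in Men1flf RIP-Cre islets, against 8.86, 8.82 and 8.51 in RIP-Cre islets, so the groups did not overlap. It rose by 0.53 (SE 0.16, limma adjusted p = 0.0109), a call that ended without RIP-Cre array 3 (0.42, adjusted p = 0.0623). Rnf2 stood at 0.06 (adjusted p = 0.897) in a fit that holds the array median fixed, described with the member counts. The levels were 9.28, 9.05, 8.96 and 8.89 in Rbp2flf RIP-Cre, where the change against RIP-Cre was 0.32 (adjusted p = 0.123). In Men1flf Rbp2flf RIP-Cre the 4 arrays split into 8.76 and 8.79 and, well above, 9.26 and 9.27, with a change of 0.29 (adjusted p = 0.123). Both of these changes missed the threshold. The lower pair in Men1flf Rbp2flf RIP-Cre was arrays 1 and 3. These read higher than arrays 2 and 4 for Ring1 and Ezh1 and lower for Bmi1, while Eed and Cbx8 showed no such split.

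The ratio of the pair was lower in the knockout groups, although it did not pass after adjustment. The log2 ratio of Ring1 to Rnf2 signal on the same array was -0.42 ± 0.13 in Men1flf RIP-Cre (SD, n = 3), 0.05 ± 0.33 in Rbp2flf RIP-Cre (n = 4) and -0.02 ± 0.48 in Men1flf Rbp2flf RIP-Cre (n = 4), against 1.11 ± 0.20 in RIP-Cre (n = 3). It was lower on each knockout array than on each RIP-Cre array, by 1.53, 1.06 and 1.13 on average. An exact two-sided permutation test gave p = 0.1 for Men1flf RIP-Cre and p = 0.0286 for each of the other 2 groups, the smallest values these group sizes allow. Over 6 such comparisons of paralogue pairs the Benjamini-Hochberg adjusted values of these exact tests were 0.12, 0.0857 and 0.0857. The ratio was chosen after the values were seen.

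**Figure D1:**
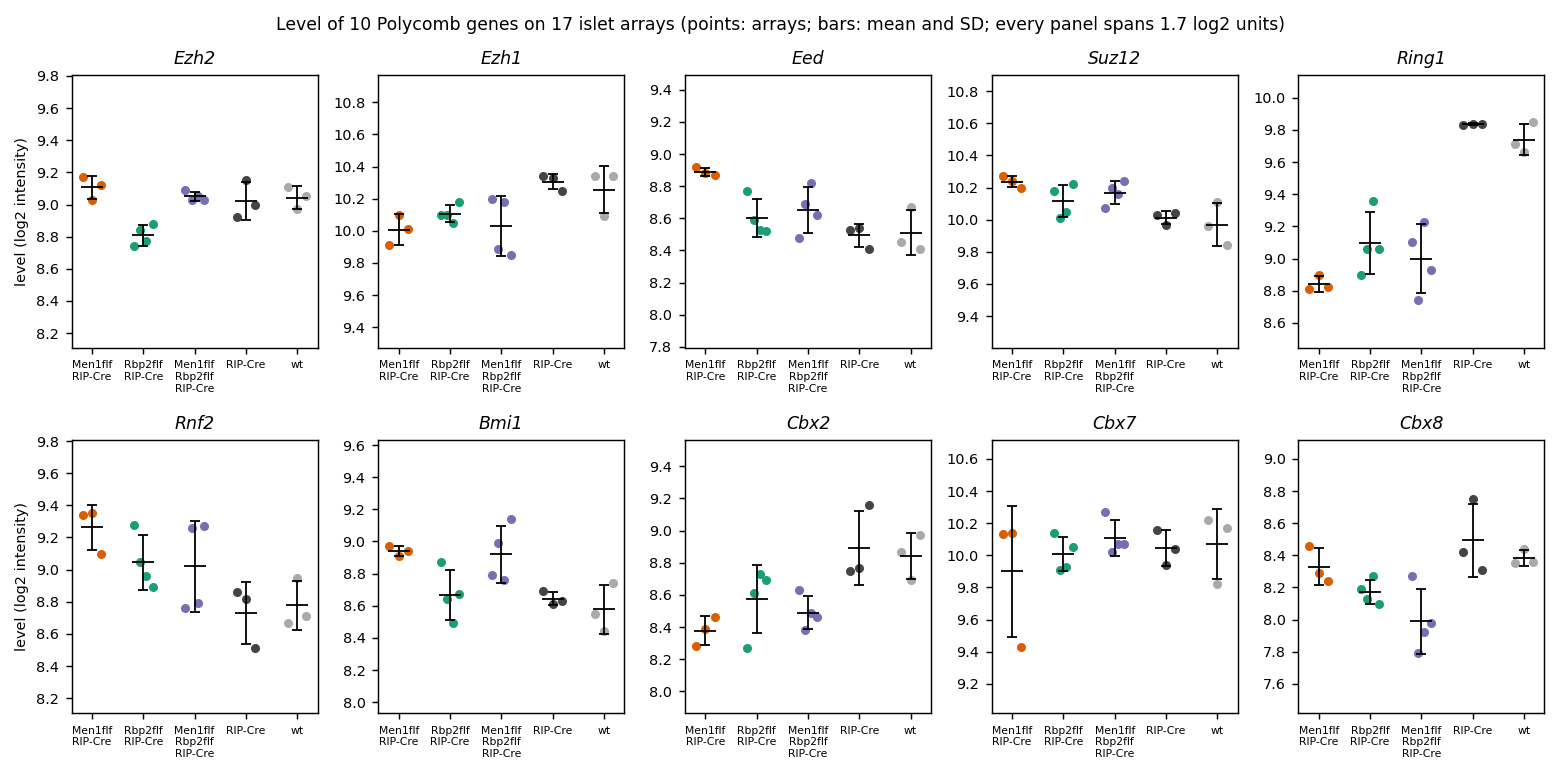
Levels of the 10 Polycomb genes (log2 intensity, vertical axis) by group (horizontal axis); points are arrays, bars give mean and SD, and each panel spans the same range. Ring1 is lower on all 11 knockout arrays than on all 6 control arrays, and Rnf2 is highest in Men1flf RIP-Cre, at 9.10 to 9.35.

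Several genes next to Ring1 on chromosome 17 also fell. Of the 5 tested genes on each side, 7 fell and 1 rose in Men1flf RIP-Cre against RIP-Cre, 2 fell and 1 rose in Rbp2flf RIP-Cre, and 3 fell and 1 rose in Men1flf Rbp2flf RIP-Cre. Over all genes 37.8% fell and 15.7% rose in the first of these, 6.70% and 6.70% in the second and 20.6% and 13.0% in the third. H2-K2, a class I gene of the major histocompatibility complex 2 tested genes away, had changes of -1.0, -0.81 and -0.75 in these comparisons, close to those of Ring1. The adjacent microRNA gene Mir219a-1 had -0.84, -0.62 and -0.65, and AA388235 on the other side had -0.94, -0.56 and -0.43, of which the last 2 did not pass. H2-Ke6, 2 tested genes away on the side of Mir219a-1, had smaller changes of -0.34, -0.23 and -0.24, of which the last 2 did not pass. Vps52, a gene of vesicle tethering 3 tested genes away, rose by 0.60, 0.61 and 0.52. Genes of the histocompatibility complex resemble each other, so a probe set there may take up signal of a related gene. Whether the groups differ in their alleles at this locus was not tested. The neighbours were examined after the values of Ring1 were seen.

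**Figure D2:**
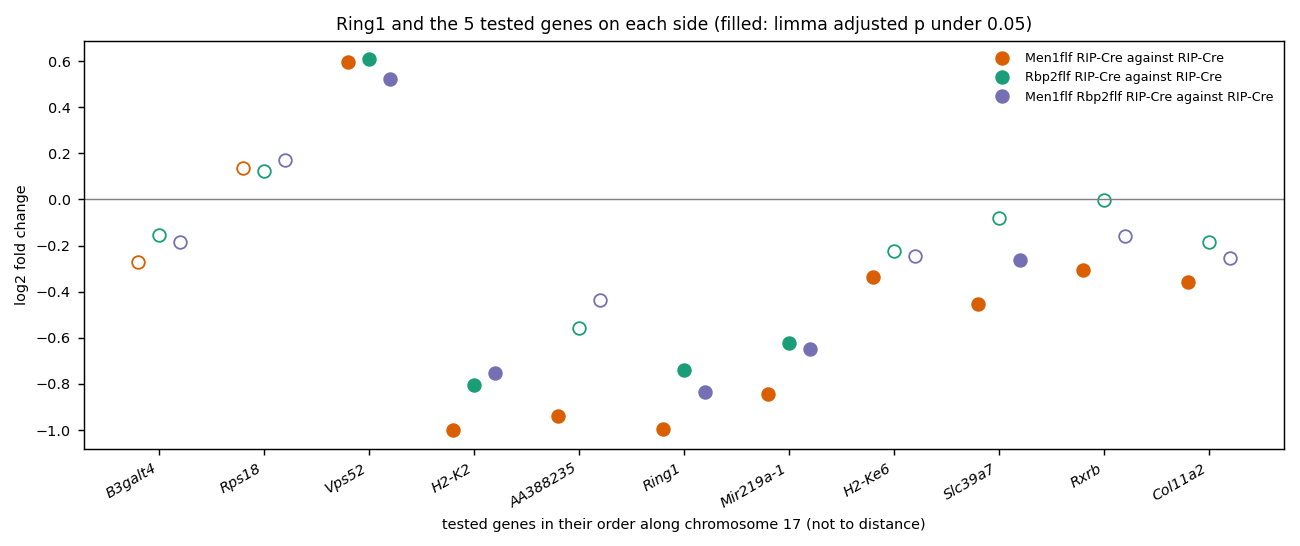
Log2 fold change against RIP-Cre (vertical axis) of Ring1 and the 5 tested genes on each side in their order on chromosome 17 (horizontal axis), one point for each knockout group, filled where limma adjusted p was under 0.05. H2-K2, AA388235 and Mir219a-1, close to Ring1, lie between -1.0 and -0.43. H2-Ke6, as near in this order as H2-K2, lies between -0.34 and -0.23, and Vps52 lies above 0.

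In Men1flf RIP-Cre islets the remaining core genes moved in both directions. With Ring1 and Rnf2 included, 4 of 10 members rose and 3 fell against RIP-Cre, that is 7 called, where 53.5% of all 19938 genes were called, 15.7% higher and 37.8% lower. The median change of the members was -0.03 and that of all genes -0.23. The array medians differed between groups (7.86 to 7.87 in Men1flf RIP-Cre, 7.82 to 7.98 in Rbp2flf RIP-Cre, 7.88 to 7.95 in Men1flf Rbp2flf RIP-Cre, 7.97 to 8.16 in RIP-Cre and 7.99 to 8.10 in wt). Further scalings were therefore set beside the deposited values: cyclic loess, which evens out differences between arrays that depend on level, and a fit with the array median held fixed. After cyclic loess 3 members rose and 3 fell, against 34.5% of all genes called, and the calls over all genes then split into 53.5% higher, against 29.3% as deposited. The median change of all genes moved to -0.02 with that scaling, and to -0.01 in both other knockout groups. With the array median held fixed 1 fell, Ring1 (-0.77, adjusted p = 0.0254), against 1.99% of all genes called. In that fit Suz12 stood at 0.12 (adjusted p = 0.631), Bmi1 at 0.15 (adjusted p = 0.671) and Ezh1 at -0.19 (adjusted p = 0.553).

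Eed, the PRC2 subunit that binds the finished mark, read 8.92, 8.88 and 8.87 in Men1flf RIP-Cre, against 8.53, 8.54 and 8.41 in RIP-Cre. The groups did not overlap, and the change was 0.40 (SE 0.10, limma adjusted p = 0.00606). It kept its call without any 1 of the 17 arrays (adjusted p up to 0.0299), but stood at 0.16 (adjusted p = 0.515) with the array median held fixed. The second Eed probe set, which matches a single cDNA clone and is dim, went the other way: it read 6.24, 6.25 and 6.26 in Men1flf RIP-Cre, against 6.58, 6.58 and 6.54 in RIP-Cre (-0.32, adjusted p = 0.0400). The median change of the 1774 genes within 0.25 of its level was -0.37, while that of the 2176 genes within 0.25 of the main probe set was -0.09. The direction for Eed therefore depends on the probe set.

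Suz12, the subunit that holds PRC2 together, read 10.27, 10.24 and 10.20 in Men1flf RIP-Cre, against 10.03, 9.97 and 10.04 in RIP-Cre. Its change of 0.22 (SE 0.09, limma adjusted p = 0.0441) shrank to 0.07 (adjusted p = 0.504) after cyclic loess. The call also ended without any 1 of the 6 arrays compared, and without wt array 1 or Men1flf Rbp2flf RIP-Cre array 2 or 3 (0.20 to 0.24, adjusted p = 0.0510 to 0.113).

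Of the PRC2 enzymes, Ezh1 passed in Men1flf RIP-Cre and Ezh2 did not. A call for only 1 of them does not show that they differed, and their ratio is given further on. Ezh1, the enzyme typical of cells that do not divide, read 9.91, 10.10 and 10.01, against 10.34, 10.33 and 10.25 in RIP-Cre, and fell by 0.30 (SE 0.11, limma adjusted p = 0.0282). Genes within 0.25 of its level had a median change of 0.12, and after cyclic loess Ezh1 stood at -0.45 (adjusted p = 0.00749). The call ended without RIP-Cre array 1 or 2 or Men1flf RIP-Cre array 1 or 3 (-0.30 to -0.25, adjusted p = 0.0571 to 0.103). Ezh2, the enzyme typical of dividing cells, read 9.17, 9.03 and 9.12, against 8.92, 9.15 and 9.0 in RIP-Cre. The groups overlapped, and its change of 0.08 (95% interval -0.09 to 0.26, adjusted p = 0.395) did not pass.

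Bmi1, the Pcgf partner of Ring1 and Rnf2 in canonical PRC1, read 8.97, 8.91 and 8.94 in Men1flf RIP-Cre, against 8.69, 8.61 and 8.63 in RIP-Cre. It rose by 0.30 (SE 0.12, limma adjusted p = 0.0398), and by 0.36 (adjusted p = 0.0259) after cyclic loess. The call ended without any 1 of the 6 arrays compared (0.28 to 0.32, adjusted p = 0.0550 to 0.0974), although the groups did not overlap. Cbx2, a reader of the PRC2 mark that also compacts chromatin, read 8.28, 8.39 and 8.46, against 8.75, 8.77 and 9.16 in RIP-Cre. It fell by 0.52 (SE 0.13, adjusted p = 0.00591), kept its call without any 1 array, and stood at -0.43 (adjusted p = 0.0114) after cyclic loess but at -0.06 (adjusted p = 0.836) with the array median held fixed.

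The other Cbx readers did not pass in Men1flf RIP-Cre. Cbx8 changed by -0.16 (95% interval -0.43 to 0.10) and Cbx7, the reader most tied to silencing of Cdkn2a, by -0.15 (95% interval -0.48 to 0.19). For Cbx7 the arrays read 10.13, 10.14 and 9.43, so that array 3 alone set the low mean, against 10.16, 9.94 and 10.04 in RIP-Cre.

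**Figure D3:**
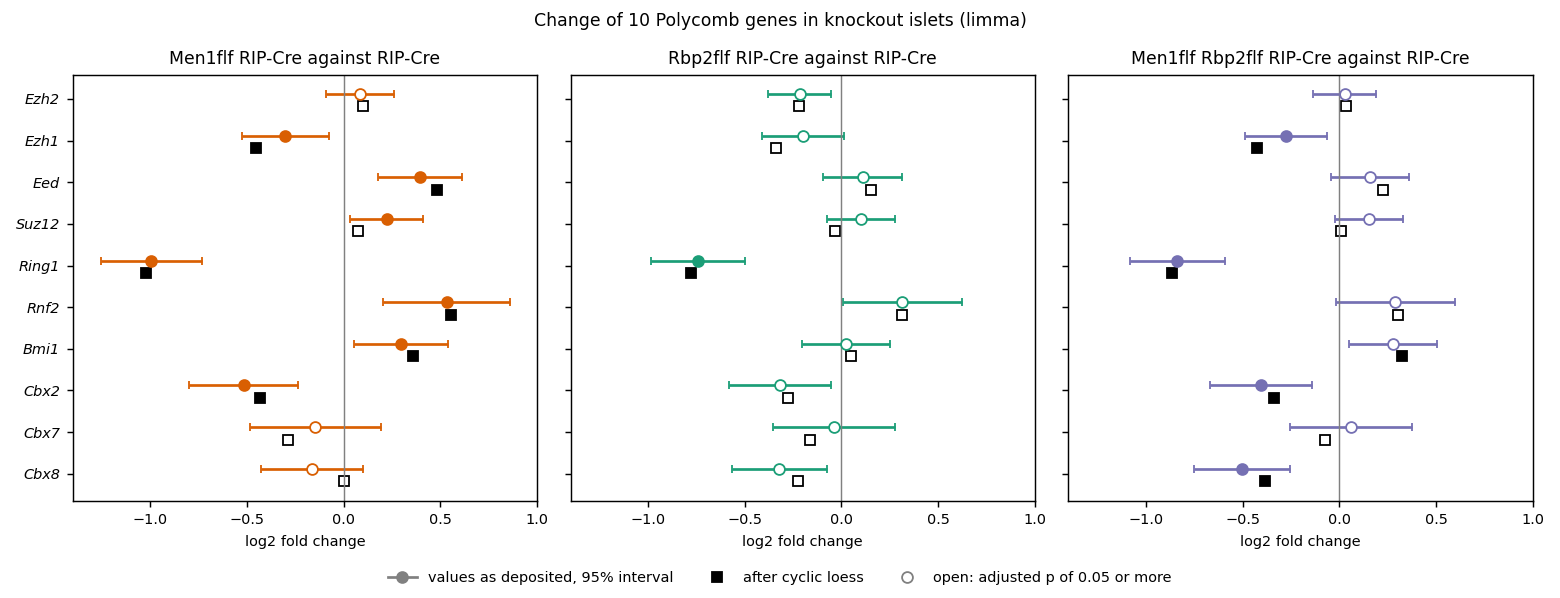
Log2 fold change against RIP-Cre (horizontal axis) of each Polycomb gene (rows) in the 3 knockout groups; circles are values as deposited with the 95% interval, squares the values after cyclic loess, and open symbols did not pass. Ring1 stands apart at -0.99, -0.74 and -0.84, and Cbx8 passes in Men1flf Rbp2flf RIP-Cre, at -0.50.

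Loss of Rbp2 alone left most core genes without a call. In Rbp2flf RIP-Cre against RIP-Cre limma called 1 of 10 members, Ring1, where 13.4% of all genes were called, and 5 members had an unadjusted p under 0.05, as did 38.3% of all genes. After cyclic loess Ring1 was again the member called (-0.78, adjusted p = 0.00308), against 9.42% of genes. With the array median held fixed it missed the threshold (-0.60, adjusted p = 0.0722), and no member passed, against 0.211% of genes. The median change of the members was -0.12 and that of all genes -0.13.

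Ezh2 was lowest in this group. It read 8.74, 8.84, 8.77 and 8.88 in Rbp2flf RIP-Cre, against 8.92, 9.15 and 9.0 in RIP-Cre, so that each of the 4 arrays lay below each RIP-Cre array. The change of -0.22 (95% interval -0.38 to -0.05, limma adjusted p = 0.0655) missed the threshold. Against all 6 control arrays together it was -0.23 and passed (adjusted p = 0.0180). With that control 6221 of all genes were called, in place of 2672 against RIP-Cre alone. Cbx8 read 8.19, 8.13, 8.27 and 8.10, below the RIP-Cre values of 8.42, 8.75 and 8.31, and its change of -0.32 (adjusted p = 0.0682) also missed. Cbx2 stood at -0.32 (adjusted p = 0.0817) and Ezh1 at -0.20 (adjusted p = 0.151). Their arrays also lay below each RIP-Cre array, while those of Rnf2 lay above. Eed (0.11), Suz12 (0.10), Bmi1 (0.02) and Cbx7 (-0.04) stayed nearer to 0, with overlapping arrays for each.

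In Men1flf Rbp2flf RIP-Cre islets 4 of 10 members fell against RIP-Cre and none rose, where 33.7% of all genes were called, 20.6% lower and 13.0% higher. They were Ring1, Cbx8, Cbx2 and Ezh1. Cbx8 had its lowest levels here, 8.27, 7.79, 7.92 and 7.98, against 8.42, 8.75 and 8.31 in RIP-Cre. The change was -0.50 (SE 0.12, limma adjusted p = 0.00690), with a call without any 1 array (adjusted p up to 0.0257), after cyclic loess (-0.38, adjusted p = 0.0343) and with the array median held fixed (-0.61, adjusted p = 0.0491). In the order of group means Cbx8 ran Men1flf Rbp2flf RIP-Cre, Rbp2flf RIP-Cre, Men1flf RIP-Cre, wt and RIP-Cre, and each pair of neighbours overlapped. The double knockout against Men1flf RIP-Cre gave -0.34 for Cbx8 (adjusted p = 0.189), which did not pass.

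Cbx2 read 8.63, 8.38, 8.49 and 8.46 in Men1flf Rbp2flf RIP-Cre, below the RIP-Cre values of 8.75, 8.77 and 9.16. It fell by 0.40 (SE 0.12, limma adjusted p = 0.0232), and the call ended without RIP-Cre array 3 (-0.27, adjusted p = 0.150) or Men1flf Rbp2flf RIP-Cre array 2 (-0.37, adjusted p = 0.0629) or array 4 (-0.39, adjusted p = 0.0565). It stood at -0.07 (adjusted p = 0.689) with the array median held fixed. Cbx2 and Cbx8 are neighbours on chromosome 11. Ezh1 read 10.20, 9.89, 10.18 and 9.85, below the RIP-Cre values of 10.34, 10.33 and 10.25, and fell by 0.28 (SE 0.10, adjusted p = 0.0438). That call ended without any 1 of the 3 RIP-Cre arrays, Men1flf RIP-Cre array 3, Rbp2flf RIP-Cre array 2 or 3, or Men1flf Rbp2flf RIP-Cre array 2 or 4 (-0.31 to -0.22, adjusted p = 0.0503 to 0.132).

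Bmi1 read 8.79, 8.99, 8.76 and 9.14 in Men1flf Rbp2flf RIP-Cre, above each RIP-Cre array (8.61 to 8.69), with a change of 0.28 (limma adjusted p = 0.0569). It passed after cyclic loess (0.32, adjusted p = 0.0393), where 5 members were called against 25.3% of genes and 55.1% of all calls were higher, against 38.7% as deposited. With the array median held fixed 2 members passed, Ring1 and Cbx8, against 1.40% of genes. Eed (0.16), Suz12 (0.15), Cbx7 (0.06) and Ezh2 (0.03) did not pass.

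Between the knockout groups no core gene passed. Limma called 0 of 10 members in Men1flf Rbp2flf RIP-Cre against Men1flf RIP-Cre, where 1.67% of genes were called, and 0 of 10 against Rbp2flf RIP-Cre, where 1.20% were called. In each, 2 members had an unadjusted p under 0.05, as did 14.4% of all genes in the first and 11.6% in the second. Against Men1flf RIP-Cre these were Cbx8 and Eed (-0.24, adjusted p = 0.270), whose arrays at 8.48, 8.69, 8.82 and 8.62 lay below 8.92, 8.88 and 8.87. Against Rbp2flf RIP-Cre they were Bmi1 (0.25, adjusted p = 0.300) and Ezh2 (0.24, adjusted p = 0.129). RIP-Cre against wt gave 0 of 10 by limma, with no member at an unadjusted p under 0.05 and 0% of genes called. Its member changes ran between -0.05 for Rnf2 and 0.11 for Cbx8.

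Since Ezh2 is a gene of dividing cells, other such genes are given beside it. Ezh2 read 9.09, 9.03, 9.05 and 9.03 in Men1flf Rbp2flf RIP-Cre, all above the 8.74 to 8.88 of Rbp2flf RIP-Cre. The mean of 18 dividing cell genes, such as the replication clamp gene Pcna and the helicase genes Mcm2 and Mcm3, lay between 7.75 and 7.99 in Men1flf Rbp2flf RIP-Cre and between 7.31 and 7.58 in Rbp2flf RIP-Cre. It was 7.62 to 7.87 in Men1flf RIP-Cre, 7.49 to 7.84 in RIP-Cre and 7.53 to 7.73 in wt. Of the 18, 4 fell in Rbp2flf RIP-Cre against RIP-Cre, among them the mitotic kinase gene Plk1 (-0.73) and the replication licensing gene Cdc6 (-0.51), and none rose. In Men1flf Rbp2flf RIP-Cre 4 rose, led by Pcna (1.03) and Mcm6 (0.59), and none fell. Over all genes 6.70% fell in the first comparison and 13.0% rose in the second. After cyclic loess 1 of the 18 fell in Rbp2flf RIP-Cre, where Cdc6 stood at -0.29 (adjusted p = 0.107), and 10 rose in Men1flf Rbp2flf RIP-Cre. With that scaling 3.81% of all genes fell in the first and 13.9% rose in the second. In Men1flf RIP-Cre 1 rose as deposited and 2 fell, Birc5 (-0.43) and Plk1 (-0.68), where 15.7% of all genes rose and 37.8% fell. After cyclic loess 8 rose and none fell there, where 18.4% of all genes rose. None of the 18 passed in these comparisons against RIP-Cre with the array median held fixed. In Men1flf Rbp2flf RIP-Cre against Rbp2flf RIP-Cre 2 of the 18 rose as deposited and none fell, where 0.582% of all genes rose. There 4 rose after cyclic loess, where 0.943% of all genes rose. With the array median held fixed 5 rose in that comparison, where 510 of all 19938 genes were called. The part of dividing cells in the Ezh2 level was not tested. In whole islets, fewer cells of a type and less RNA per cell cannot be told apart.

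The corresponding ratio of the PRC2 enzymes did not pass either. The log2 ratio of Ezh1 to Ezh2 signal was 0.90 ± 0.17 in Men1flf RIP-Cre (SD, n = 3), 1.30 ± 0.04 in Rbp2flf RIP-Cre (n = 4) and 0.98 ± 0.16 in Men1flf Rbp2flf RIP-Cre (n = 4), against 1.28 ± 0.12 in RIP-Cre (n = 3). Differences from RIP-Cre were -0.38, 0.02 and -0.30, and the exact two-sided permutation p was 0.1, 0.829 and 0.0857. After adjustment over the 6 comparisons of paralogue pairs these exact values were 0.12, 0.829 and 0.12. With 3 arrays in each group the smallest exact p is 0.1, so the ratio in Men1flf RIP-Cre could not pass. It ran from 0.74 to 1.07 there, without overlap with the 1.18 to 1.42 of RIP-Cre.

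Among other genes of the pathway, the accessory subunits of PRC2 moved in both directions. In Men1flf RIP-Cre against RIP-Cre 3 of 9 rose and 4 fell, where 15.7% of all genes rose and 37.8% fell. The histone-binding subunit gene Rbbp7 rose by 0.78 (SE 0.14, limma adjusted p = 0.000815) and the corepressor gene Lcor by 0.50, while Aebp2, a DNA-binding subunit, fell by 0.47 (SE 0.08) and Phf1, a Polycomb-like subunit, by 0.45. In Rbp2flf RIP-Cre 2 of 9 rose, Rbbp4 (0.53) and Rbbp7 (0.49), and none fell. In Men1flf Rbp2flf RIP-Cre the same 2 rose (0.60 and 0.58) and 2 fell, Epop (-0.48) and Aebp2 (-0.24). Rbbp4 and Rbbp7 also serve in other chromatin complexes. The medians of the list were -0.16, -0.14 and -0.19, against -0.23, -0.13 and -0.15 for all genes. With the array median held fixed none of the 9 passed in these comparisons.

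Of 17 other PRC1 genes, 4 rose and 1 fell in Men1flf RIP-Cre, none passed in Rbp2flf RIP-Cre, and 1 rose in Men1flf Rbp2flf RIP-Cre. Over all genes 15.7% rose and 37.8% fell in the first comparison, and 13.0% rose and 20.6% fell in the last. After cyclic loess 4 rose and 3 fell in Men1flf RIP-Cre, and 1 rose and 3 fell in Men1flf Rbp2flf RIP-Cre, the last 3 being Mga (-0.37), Phc1 (-0.20) and Phc2 (-0.22). Pcgf6, which pairs with Ring1 or Rnf2 in a variant PRC1 without Cbx proteins, led them. It read 9.52, 9.40 and 9.26 in Men1flf RIP-Cre and 8.77, 9.07, 8.98 and 8.84 in Men1flf Rbp2flf RIP-Cre, against 8.47, 8.43 and 8.23 in RIP-Cre. Each array of both groups lay above each RIP-Cre array. The change was 1.02 (SE 0.11, limma adjusted p = 4.35e-05) in Men1flf RIP-Cre and 0.54 (SE 0.11, adjusted p = 0.00330) in Men1flf Rbp2flf RIP-Cre. The first was 0.78 (adjusted p = 0.0109) with the array median held fixed, and the second then missed the threshold (0.37, adjusted p = 0.111). In Rbp2flf RIP-Cre it read 8.58, 8.43, 8.22 and 8.31, a change of 0.01 (adjusted p = 0.958). Of the 17, 1 fell in Men1flf Rbp2flf RIP-Cre with the array median held fixed, against 1.40% of all genes called. It was Pcgf1 (-0.66, limma adjusted p = 0.0209), which as deposited stood at -0.34 (adjusted p = 0.0688).

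Pcgf6 was also lower in Men1flf Rbp2flf RIP-Cre than in Men1flf RIP-Cre, by -0.48 (SE 0.11, limma adjusted p = 0.0276), without overlap of the arrays. The interaction was -0.49 (adjusted p = 0.0595) and did not pass. The remaining PRC1 calls in Men1flf RIP-Cre were Yaf2 (0.46), Bcor (0.28) and Pcgf3 (0.26), genes of variant complexes, and Pcgf2 (-0.30), the close relative of Bmi1.

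**Figure D4:**
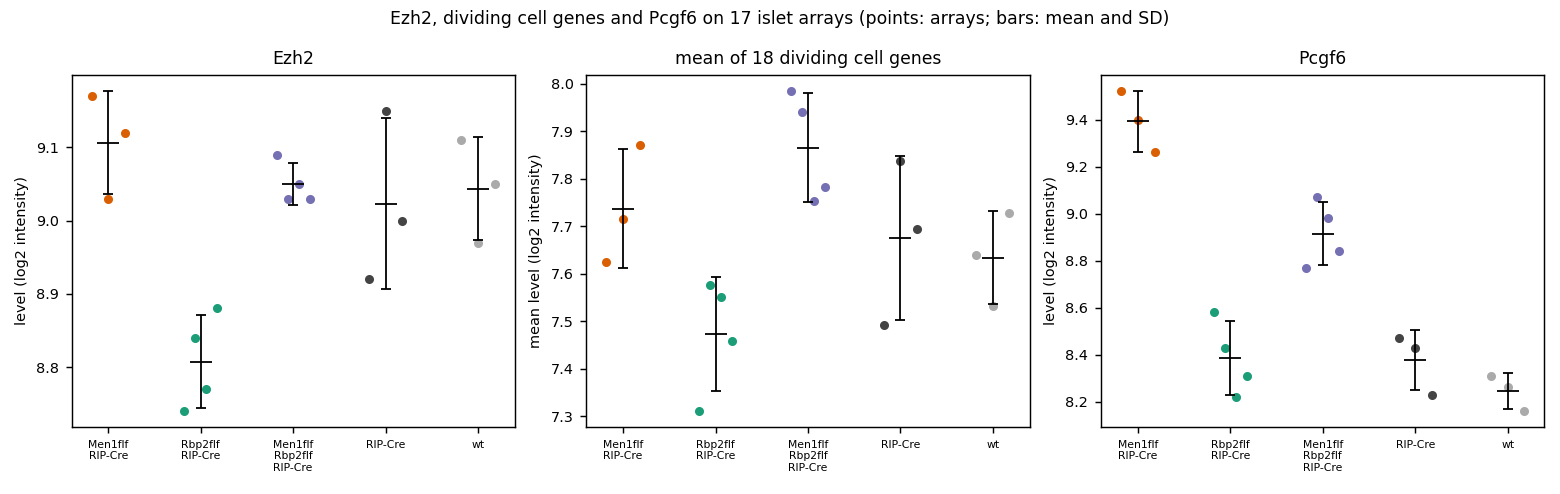
Level of Ezh2, mean level of 18 dividing cell genes and level of Pcgf6 (log2 intensity, vertical axes) by group (horizontal axes), with arrays as points and bars for mean and SD. Ezh2 and the dividing cell mean are lowest in Rbp2flf RIP-Cre, and Pcgf6 is highest in Men1flf RIP-Cre at 9.26 to 9.52.

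Enzymes that act against Polycomb marks also split, and with the array median held fixed none passed. In Men1flf RIP-Cre 2 of 6 rose, the H2A deubiquitinase gene Bap1 (0.50, SE 0.11, limma adjusted p = 0.00322) and the demethylase gene Kdm6a (0.34), and 2 fell, the demethylase gene Kdm6b (-0.38) and the Bap1 partner gene Asxl2 (-0.31), where 15.7% of all genes rose and 37.8% fell. None passed in Rbp2flf RIP-Cre, and Bap1 rose by 0.40 in Men1flf Rbp2flf RIP-Cre.

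None of the known Polycomb targets tested rose. Cdkn2a changed by -0.31 in Men1flf RIP-Cre, -0.33 in Rbp2flf RIP-Cre and -0.26 in Men1flf Rbp2flf RIP-Cre (limma adjusted p = 0.0632, 0.0772 and 0.112), and Cdkn2b did not pass either. In the same order Cdkn2a stood at -0.01, -0.15 and -0.06 after cyclic loess, and at 0.06, -0.09 and 0.01 with the array median held fixed. Of 20 developmental regulators that Polycomb keeps silent in many tissues, none rose, and 16 fell in Men1flf RIP-Cre, 0 in Rbp2flf RIP-Cre and 8 in Men1flf Rbp2flf RIP-Cre. Over all genes 37.8%, 6.70% and 20.6% fell. The medians were -0.50, -0.30 and -0.34, against -0.23, -0.13 and -0.15 for all genes. After cyclic loess 3, 0 and 3 of them fell, where 16% of all genes fell in Men1flf RIP-Cre, 3.81% in Rbp2flf RIP-Cre and 11.4% in Men1flf Rbp2flf RIP-Cre, with medians of -0.22, -0.17 and -0.18, and with the array median held fixed none passed. Examples in Men1flf RIP-Cre are Otx2 (-0.71) and Pax9 (-0.56), which stood at -0.33 and -0.22 after cyclic loess.

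The genes whose pattern over the 17 arrays was closest to each member moving against RIP-Cre were found by the root mean square difference of centred levels. For Ring1 they were Baiap2l2 (difference 0.0821), Rbm20 (0.101) and its neighbour H2-K2 (0.101), where Ring1 itself varied with an SD of 0.423. For Rnf2 they were Clns1a (0.0755), Golm2 (0.0766) and Tor1aip2 (0.0807). For Cbx2 they were Cfc1 (0.0497), Bcl11b (0.0579) and Ntsr2 (0.0589), and for Cbx8 Prob1 (0.110), Apbb1 (0.113) and Phf23 (0.118). For Ezh1 they were Zc3h4 (0.0486), Hdac10 (0.0543) and Lime1 (0.0585). The closest to Eed were Ralgapa1 (0.0596), Nvl (0.0628) and Xpo5 (0.0667), to Suz12 Tab3, Cbx1 and Nr3c1 (0.0564 to 0.0584), and to Bmi1 Zfp60, Zfp655 and Nkiras2 (0.0835 to 0.0927). All these genes share the arrays and their shift in median with the members.

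Checks of the samples bear on all of the above. Men1 lay between 8.14 and 8.43 in Men1flf RIP-Cre and between 8.46 and 8.87 in Men1flf Rbp2flf RIP-Cre, against 9.31 to 9.49 in RIP-Cre, and was 10.05 to 10.24 in Rbp2flf RIP-Cre. Kdm5a passed in none of the comparisons, at 8.95 to 9.18 in Rbp2flf RIP-Cre and 9.07 to 9.39 in Men1flf Rbp2flf RIP-Cre, against 9.09 to 9.37 in RIP-Cre. Where its probes lie relative to the deletion was not analysed here, so it checks nothing about the deletion. Cell type markers moved with the groups. The mean of 10 beta cell markers was 12.55 to 12.63 in Men1flf RIP-Cre, 12.26 to 12.45 in Rbp2flf RIP-Cre and 12.38 to 12.56 in Men1flf Rbp2flf RIP-Cre, against 11.62 to 12.19 in RIP-Cre. Of the 10, 7 rose in Men1flf RIP-Cre, 3 in Rbp2flf RIP-Cre and 7 in Men1flf Rbp2flf RIP-Cre. Over all genes 15.7%, 6.70% and 13.0% rose. The mean of 4 alpha cell markers was 10.02 to 10.16 in Men1flf RIP-Cre, against 10.40 to 11.02 in RIP-Cre, and 2 of the 4 fell. In that comparison the mean of 4 delta cell markers was 9.19 to 9.57, against 9.68 to 10.52, and 2 fell. The mean of 3 duct cell markers was 6.96 to 7.08, against 7.35 to 7.75, and 2 fell. As deposited, most beta cell markers thus rose in Men1flf RIP-Cre, where some markers of alpha, delta and duct cells fell. Over all genes 37.8% fell there. The mean of 3 Schwann cell markers was 7.42 to 7.48, against 8.06 to 8.54, and all 3 fell. The mean of 7 macrophage markers was 8.11 to 8.45, against 7.79 to 7.87, and 3 rose, although the wt arrays reached 8.50. After cyclic loess 6 of the 10 beta cell markers rose in Men1flf RIP-Cre. With that scaling 2 fell, Ins2 and Mafa (both -0.41), neither of them called as deposited. In Men1flf Rbp2flf RIP-Cre 3 rose and 3 fell. All 4 alpha and all 4 delta cell markers then fell in Men1flf RIP-Cre, and none of the 3 duct cell markers did. Over all genes 18.4% rose and 16% fell there after cyclic loess, and 13.9% and 11.4% in Men1flf Rbp2flf RIP-Cre. None of these markers was listed at 0 on any array, and their part in the changes of the Polycomb genes was not tested.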

How the data were processed

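Islet RNA of 17 mouse arrays was deposited by the authors as log2 intensities for 35512 probe sets, as the range of the values (0 to 15.2) shows. For the software, background correction and normalization behind them, no source used here names any. The values were used as deposited. GEO's platform annotation named 1 gene for 21789 probe sets, several for 1621 and none was listed for 12102; 21698 were updated to current symbols by gene ID. The probe set with the highest mean stood for each gene, which left 19938 genes.

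Group means over all 17 arrays were fitted with limma 3.58.1 in R 4.3.3 (lmFit, eBayes), with Benjamini-Hochberg adjustment over all genes within each of 7 comparisons, and called at an adjusted p under 0.05. No low-value filter was applied. The fit was tested on simulated data. The members and gene lists were chosen with earlier results of these data known. Every member is named; of other lists, up to the 2 highest and 2 lowest test statistics in a comparison were named, and lists with 5 or fewer calls in full where stated. Alternatives were cyclic loess, quantile normalization, the array median as a covariate, other controls, only the arrays compared, all probe sets, trended variances, a low-level filter, a replicate block and leaving out each array. Neighbouring genes and paralogue ratios were added after the values were seen. Promoter sequences are from RefSeq (GRCm38.p6), which held 9 of the 10 members. The number of arrays limits the precision.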

Additional observations from a re-analysis of the deposited data

Results flagged for a closer look

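As deposited, the effect of Rbp2flf on Ring1 differed between the Men1flf background and the RIP-Cre background, a call that did not hold in every fit. In Men1flf islets it was 0.16 (Men1flf Rbp2flf RIP-Cre against Men1flf RIP-Cre), and in islets with intact Men1 it was -0.74 (Rbp2flf RIP-Cre against RIP-Cre), a difference of 0.90 by limma's interaction term (SE 0.16, adjusted p = 0.0219). It was 0.93 (adjusted p = 0.0144) after cyclic loess and 0.69 (adjusted p = 0.290) with the array median held fixed. The call ended in 4 of the 17 fits that left out 1 array (limma adjusted p up to 0.0782). The median interaction of all genes was 0.20 as deposited.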

How the results depend on the processing

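With 1 fixed probe set for each gene, no member reversed direction in a comparison where it was called, under the alternatives run. The second Eed probe set is the exception to a single direction: it was called lower in Men1flf RIP-Cre (-0.32, adjusted p = 0.0400), where the main one was called higher (0.40). With the array median as a covariate the number of members called was 1 in Men1flf RIP-Cre, 0 in Rbp2flf RIP-Cre and 2 in Men1flf Rbp2flf RIP-Cre, each against RIP-Cre, and 0 in the interaction; since the medians differ between groups, this fit can also remove part of the group difference. With wt and RIP-Cre pooled, 4 members were called in Rbp2flf RIP-Cre, Ezh2, Cbx2 and Cbx8 besides Ring1. That control also raised the number of all genes called there, to 6221 in place of 2672 with RIP-Cre alone. Leaving out 1 array at a time gave 4 to 7 members in Men1flf RIP-Cre, 1 in Rbp2flf RIP-Cre and 2 to 5 in Men1flf Rbp2flf RIP-Cre. It gave 0 to 1 in the interaction and 0 in the other comparisons. The genes called in these fits varied widely too, in the same order 6174 to 11061, 223 to 3611, 2371 to 7409 and, for the interaction, 22 to 2783. The arrays that end a member's call are named beside it. With wt as the control Ezh1 missed the threshold in Men1flf RIP-Cre (-0.25, adjusted p = 0.0594) and in Men1flf Rbp2flf RIP-Cre (-0.23, adjusted p = 0.0905). Deviations of samples that share a replicate number had a median correlation of 0.0107 over 31 pairs, 10 of them over 0.1. For different numbers it was -0.0054 over 84 pairs, 21 of them over 0.1. Whether a number stands for a batch cannot be told from these values. A replicate block called 2 members in the interaction, Ring1 and Rnf2 (-0.69, limma adjusted p = 0.0312), where 3826 genes were called in place of 675. It called 6, 1 and 3 members in the comparisons of Men1flf RIP-Cre, Rbp2flf RIP-Cre and Men1flf Rbp2flf RIP-Cre with RIP-Cre. Over all genes it called 10850, 3804 and 4332. The cause of these shifts was not tested.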

Other observations

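Genes beside the other members were also counted. Of the 10 tested genes around Cbx8 on chromosome 11, 7 fell and 1 rose in Men1flf RIP-Cre against RIP-Cre, and 6 fell and 1 rose in Men1flf Rbp2flf RIP-Cre. Over all genes 37.8% fell in the first comparison and 20.6% in the second. Around Cbx7 6 fell and none rose in Men1flf RIP-Cre, and 2 fell in Men1flf Rbp2flf RIP-Cre. Around Cbx2 5 fell and 1 rose in each; these windows overlap, and each includes the other gene. Around Rnf2 3 fell and 3 rose in Men1flf RIP-Cre. These counts were made after the values were seen.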
